A study of Mus musculus with 6 samples.

Results

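Small leucine-rich proteoglycans are secreted matrix proteins whose arched core of leucine-rich repeats binds collagen fibrils and sets how they assemble. Many carry sulfated sugar chains, chondroitin or dermatan sulfate on decorin and biglycan and keratan sulfate on fibromodulin, lumican, keratocan and osteomodulin, and several bind growth factors of the TGF-beta family. In bone they are made by osteoblasts and by the connective tissue cells of periosteum and sutures. The 9 genes described here, Dcn, Bgn, Lum, Fmod, Ogn, Omd, Prelp, Aspn and Kera, were chosen by name from the 18194 genes that the array annotation names singly. They were read by every probe set, the group of short probes that reports 1 transcript, annotated with exactly 1 gene symbol that was in this list, which gave 20 of the array's 45101 probe sets.

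The tissue was parietal bone of the calvaria, the skull roof, from 10-day-old 13del-tg mice, described in the labels as mutants with bone overgrowth, and from wild-type control littermates. As background, this strain bears a mutant Col10a1 transgene whose collagen X product misfolds. The labels give neither its promoter nor the cells that express it, and RNA came from sections of the whole bone. The labels list 3 mice of each genotype, 1 Affymetrix array each. For all 45101 probe sets, control 1 and 13del-tg 1 held identical values. That array, called the shared array, is deposited under both genotypes, so the labels do not settle its genotype. It is shown apart, and the comparison set 13del-tg 2 and 3 against controls 2 and 3.

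All 20 probe sets passed the filter on low values, a signal of 61.9 taken on the mean of the 5 distinct arrays. Col10a1 had signals of 149.8 and 158.2 in the controls, 15689 and 11584 in 13del-tg and 152.2 on the shared array. In that gene the shared array was thus at the level of the controls. 13del-tg 3 differed from the other arrays in the female transcript Xist, at 15206 against 29.9 to 84.5. The Y-linked gene Kdm5d was at 17.4 there, against 415.5 to 636.0 on the others. The 2 13del-tg arrays compared thus differed in these sex-linked transcripts while controls 2 and 3 did not, a limit on every difference below. The tissue carried bone markers, all 5 measured osteoblast markers being above the filter, and it also held other tissues in unequal amounts. The summed signal of 6 skeletal muscle markers was 119512 and 19385 in controls 2 and 3, 167815 and 125503 in 13del-tg 2 and 3, and 146433 on the shared array. That of 7 chondrocyte markers was 26488 and 6599 in the controls and 9910 and 2296 in 13del-tg. The 5 measured erythroid markers summed to 17374 and 16586 in the controls and to 6727 and 7235 in 13del-tg. In such bulk samples, fewer cells of a type and less RNA per cell cannot be told apart.

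The family is laid out in gene clusters in the mouse genome. By the RefSeq gene order of the GRCm38.p6 assembly, Dcn, Lum and Kera follow each other on chromosome 10, with the related gene Epyc next to Kera. Prelp and Fmod are neighbouring protein-coding genes on chromosome 1, Aspn, Omd and Ogn follow each other on chromosome 13, and Bgn lies alone on chromosome X. RefSeq promoters, each 250 bases before to 50 bases after a gene's start, were matched for 7 of the 9 genes. They are shown for Kera, whose signal varied most between arrays, for Fmod, whose probe sets were all lower in 13del-tg, for its neighbour Prelp, and for Aspn, whose probe sets were both higher. Capitals mark matches, on either strand, to the RUNX core TGTGGT, the TATA box TATAAA, the E-box CANNTG, the CCAAT box CCAAT or the AP-1 site TGANTCA.
Kera, chr10:97606955-97607254, plus strand, GRCm38.p6: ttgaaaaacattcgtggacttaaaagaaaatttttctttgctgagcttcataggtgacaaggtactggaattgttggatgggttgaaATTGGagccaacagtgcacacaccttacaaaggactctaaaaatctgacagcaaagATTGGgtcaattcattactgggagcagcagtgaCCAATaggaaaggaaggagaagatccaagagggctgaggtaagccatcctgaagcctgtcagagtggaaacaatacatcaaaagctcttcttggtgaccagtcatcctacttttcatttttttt
Fmod, chr1:134037004-134037303, plus strand, GRCm38.p6: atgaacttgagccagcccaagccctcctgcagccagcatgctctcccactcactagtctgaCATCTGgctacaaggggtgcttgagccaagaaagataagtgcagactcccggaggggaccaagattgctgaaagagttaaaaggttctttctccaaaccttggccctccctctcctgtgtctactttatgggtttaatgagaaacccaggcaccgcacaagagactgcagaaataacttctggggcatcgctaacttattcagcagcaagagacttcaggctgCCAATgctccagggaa
Prelp, chr1:133921352-133921651, minus strand, GRCm38.p6: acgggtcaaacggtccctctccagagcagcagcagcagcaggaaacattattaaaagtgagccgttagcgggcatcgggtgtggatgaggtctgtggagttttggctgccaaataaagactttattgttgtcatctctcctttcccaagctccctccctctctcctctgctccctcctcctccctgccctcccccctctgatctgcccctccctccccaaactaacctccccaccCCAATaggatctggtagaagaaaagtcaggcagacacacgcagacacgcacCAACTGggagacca
Aspn, chr13:49544193-49544492, plus strand, GRCm38.p6: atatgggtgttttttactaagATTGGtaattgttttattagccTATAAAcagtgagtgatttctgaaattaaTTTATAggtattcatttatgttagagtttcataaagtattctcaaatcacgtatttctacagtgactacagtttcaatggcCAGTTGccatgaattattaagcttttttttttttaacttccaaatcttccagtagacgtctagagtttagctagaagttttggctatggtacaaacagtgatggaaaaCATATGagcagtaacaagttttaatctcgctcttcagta

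The Kera window held 3 matches to the CCAAT box, starting 163, 107 and 74 bases before the gene's start, and none to the 4 other motifs. Fmod and Prelp each held 1 E-box and 1 CCAAT box, and Aspn held 2 TATA boxes, 2 E-boxes and 1 CCAAT box. The RUNX core, whose factor family includes the osteoblast regulator RUNX2, was present in 1 of the 7 member windows, that of Ogn, where it overlapped an E-box, and in 16.8% of all 32851 promoter windows of the same length. A CCAAT box was in 4 of 7 against 37.4%, an E-box in 5 of 7 against 72.3%, a TATA box in 2 of 7 against 13.6%, and an AP-1 site in 0 of 7 against 7.81%. These are matches of letters and not measured binding.

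The question was whether these matrix genes differed between 13del-tg and control bone. None of the 20 probe sets passed an adjusted p under 0.05 by limma, where 0.037% of 27022 probe sets did, 2 of them higher (0.0074%) and 8 lower (0.0296%). The members' adjusted p ran from 0.874 to 0.998. At an unadjusted p under 0.05 there were 3 of 20, against 5.14% of all probe sets, with Kera higher (1.42% of all) and 2 Fmod probe sets lower (3.72% of all). Fmod was lower in both 13del-tg arrays in each of its probe sets, whereas 8 of the 9 genes had a positive difference in their brightest probe set. The difference was positive for 12 of the 20 probe sets and negative for 8, against 41.4% and 58.6% of all. The groups did not overlap in 14 of 20, against 35.6% of all, with 13del-tg higher in 8 (12.6% of all) and lower in 6 (23% of all). The exact two-sided permutation test gives p = 0.333 for each of these 14, which is the smallest that 2 arrays against 2 allow. The median log2 difference was 0.046 over the 20 probe sets and -0.075 over all probe sets.

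**Figure D1:**
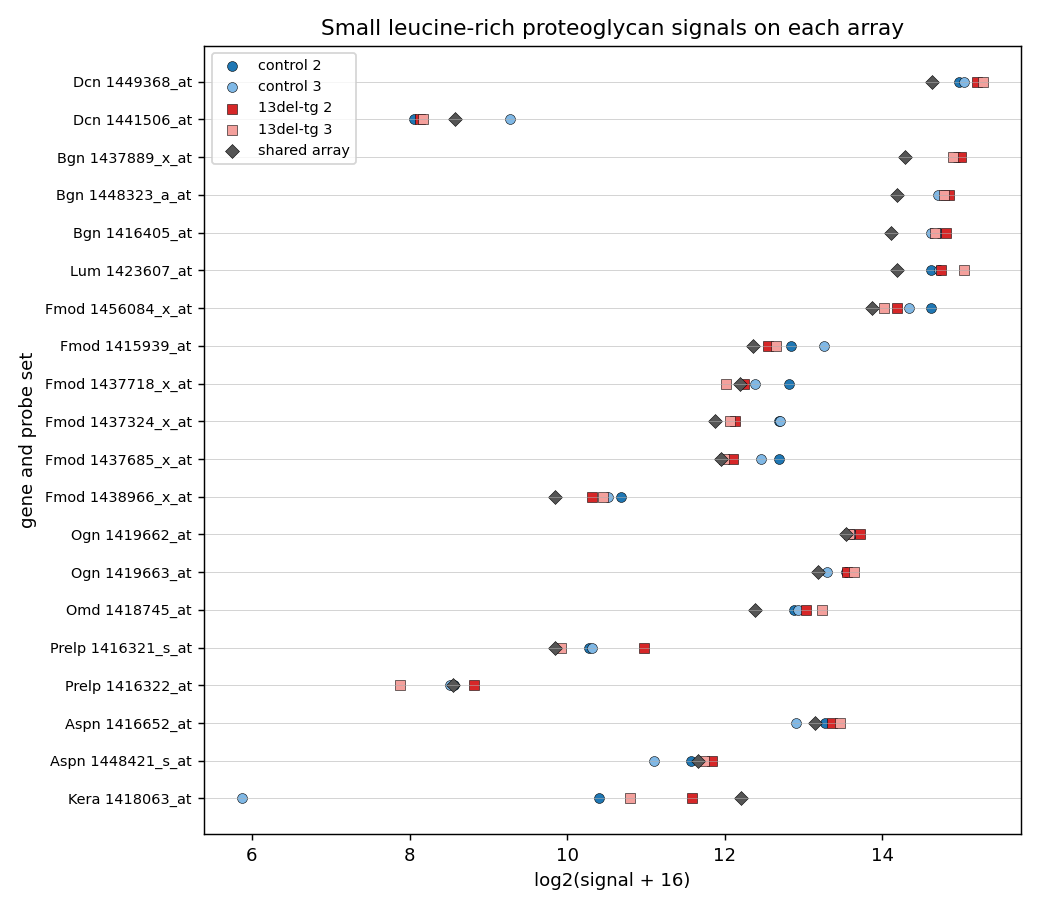
Signal of each of the 20 probe sets, as log2(signal + 16) on the horizontal axis, with 1 point for each of the 5 distinct arrays and no averaging. The shared array lies below the 4 others for 14 of the 20 probe sets, and Kera runs from a signal of 42.4 in control 3 to 4703 on the shared array.

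Decorin, encoded by Dcn, binds collagen I and limits the sideways growth of fibrils. Its main probe set, 1449368_at, had signals of 32203 and 33642 in the controls, 37716 and 39856 in 13del-tg and 25426 on the shared array. Both 13del-tg arrays were thus above both controls, with the shared array below all 4. The log2 difference was 0.24 (SE 0.17, 95% interval -0.16 to 0.63, adjusted p = 0.883 by limma), a ratio of 1.18 on the log2(signal + 16) scale. The second probe set, 1441506_at, was much dimmer and went the other way, at 249.2 and 601.0 in the controls against 264.4 and 271.1 in 13del-tg. Its difference of -0.51 (SE 0.41) rested on control 3, and was 0.097 without that array.

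Biglycan, the closest relative of decorin and a protein needed for normal bone mass in mice, was nearly level between the genotypes. Its brightest Bgn probe set, 1437889_x_at, had 31015 and 31863 in the controls and 32780 and 30498 in 13del-tg, so the groups overlapped. The 3 Bgn probe sets had log2 differences of 0.0083 (95% interval -0.39 to 0.40), 0.083 (-0.31 to 0.48) and 0.070 (-0.33 to 0.47). Quantile normalization turned all 3 to small negative values, -0.11 to -0.19. Bgn is X-linked, and 13del-tg 3, the array with Xist signal, was the lowest of the 4 compared arrays in the brightest probe set and between the others in 1448323_a_at, with 28224 against 26772 to 29568.

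Asporin, encoded by Aspn, has an aspartate-rich start in place of a sugar chain, binds collagen and calcium, and restrains TGF-beta. Of the members besides Kera it had the largest positive differences. The brighter probe set, 1416652_at, had 9845 and 7667 in the controls, 10477 and 11257 in 13del-tg and 9061 on the shared array. The dimmer one, 1448421_s_at, had 3034 and 2177 in the controls, 3653 and 3396 in 13del-tg and 3228 on the shared array. Both 13del-tg arrays were above both controls in each, and control 3 was the lowest of the 5 arrays in each. The log2 differences were 0.32 (SE 0.20, 95% interval -0.13 to 0.78) and 0.45 (SE 0.22, 95% interval -0.062 to 0.97), both with an adjusted p of 0.88 by limma. Without control 3 they were 0.14 and 0.21.

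Fibromodulin, encoded by Fmod, attaches to collagen I at the same region as lumican and is abundant in tendon and other dense connective tissue. The brightest of its 6 probe sets, 1456084_x_at, had 25162 and 20639 in the controls, 18680 and 16587 in 13del-tg and 14916 on the shared array. The one with the closest replicates, 1437324_x_at, had 6571 and 6639 in the controls, 4460 and 4270 in 13del-tg and 3744 on the shared array. For all 6, neither 13del-tg array reached the lower control, and in 5 of the 6 the shared array lay below all 4. For 1437324_x_at the log2 difference was -0.60 (SE 0.18, 95% interval -1.01 to -0.18), a change of -33.9%, with an unadjusted p of 0.0104 and an adjusted p of 0.874 by limma. For 1456084_x_at it was -0.37 (SE 0.19, 95% interval -0.81 to 0.064), a change of -22.7%.

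The other 4 Fmod probe sets had differences of -0.52 (1437685_x_at), -0.47 (1437718_x_at), -0.45 (1415939_at) and -0.22 (1438966_x_at). The last of these had the narrowest gap, with 1455 as its lower control signal and 1388 as its higher 13del-tg signal, and it turned to 0.035 when the shared array joined the controls. That same change left the other Fmod probe sets negative but smaller, at -0.34 to -0.17. Among them, 1437324_x_at went from -0.60 to -0.32, with an unadjusted p of 0.271 by limma. When the shared array was instead grouped with the mutants, the 6 ran from -0.67 to -0.40. The size of the Fmod difference thus depended on where that array was placed. Its Col10a1 signal of 152.2 was at the level of the controls. Counted as a control, it would make the groups overlap in all 6 Fmod probe sets, since it lay below a 13del-tg array in each. Fmod stayed negative in 6 of 6 probe sets with each array centred on its median (-0.41 to -0.035) and with quantile normalization (-0.71 to -0.20). Leaving out each of the 4 arrays in turn gave -0.68 to -0.14 over the 6 probe sets. The 6 share a target, so they are no independent replicates, and 5 of them carry the suffix _x_at, which marks probe sets whose probes can also match other sequences.

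**Figure D2:**
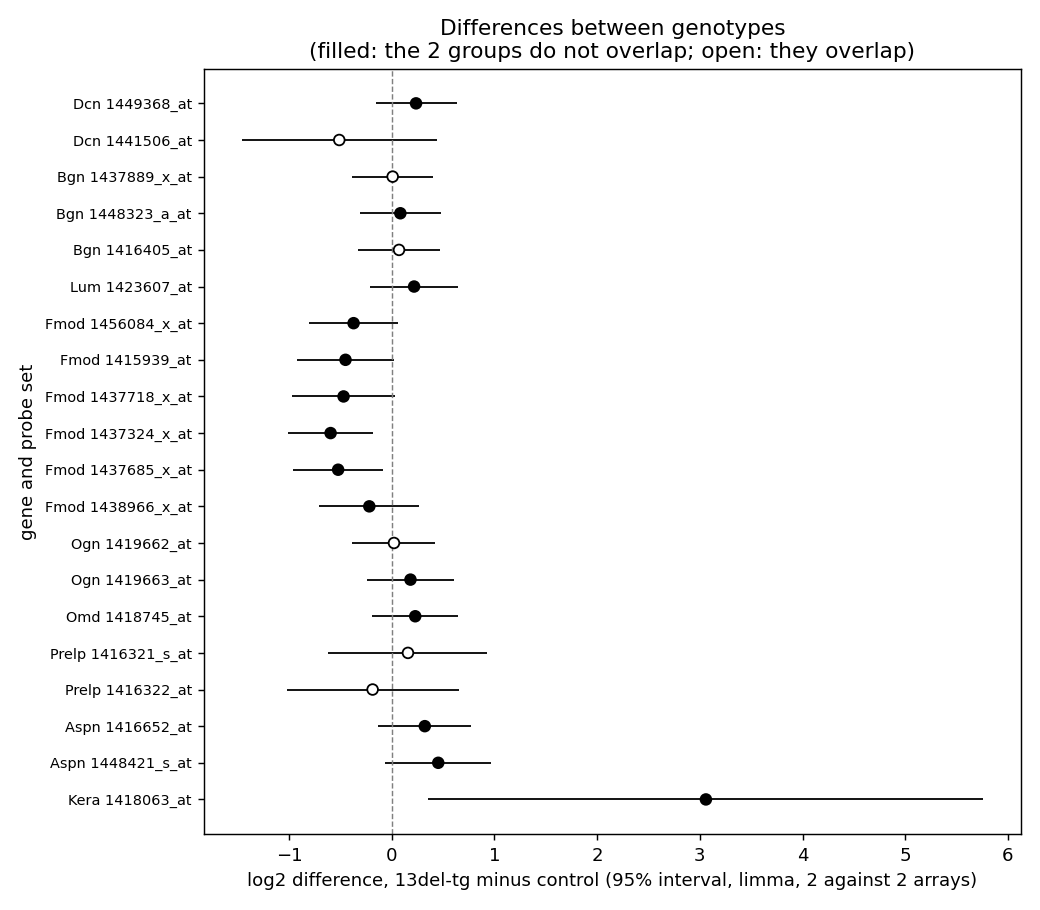
Difference between 13del-tg and control for each probe set, in log2 units on the horizontal axis, as the limma estimate with its 95% interval from 2 against 2 arrays. The 6 Fmod points lie from -0.60 to -0.22, the Kera interval runs from 0.36 to 5.76, and filled points are the 14 probe sets whose groups do not overlap.

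Lumican, encoded by Lum, is a keratan sulfate proteoglycan of cornea, skin and bone. Its only probe set, 1423607_at, had 25180 and 27053 in the controls, 27480 and 33495 in 13del-tg and 18668 on the shared array. The groups did not overlap, but 13del-tg 2 was only just above control 3, and the difference was 0.22 (SE 0.19, 95% interval -0.21 to 0.64). Since lumican and fibromodulin bind the same collagen region, the gap between them was read within each array, where a common scaling of the array cancels. This gap and those in the next sentences were chosen after the values had been seen and carry no test. Against the mean of the controls, log2 Lum minus the mean log2 of the 6 Fmod probe sets was -0.11 in control 2, 0.11 in control 3, 0.48 in 13del-tg 2, 0.83 in 13del-tg 3 and 0.17 on the shared array. Thus both 13del-tg arrays were above both controls, with the shared array just above control 3. The same gap to Fmod, 13del-tg minus control, was 0.67 for Dcn, 0.67 for Omd, 0.76 for Aspn, 0.46 for Ogn and 0.45 for Bgn. All of these gaps subtract the same Fmod mean, so they are not separate results and each includes the lower Fmod. Bgn by itself differed by 0.0083 in the probe set used. The shared array was not at one place in these gaps. It was at 0.71 for Aspn, between the 13del-tg arrays at 0.68 and 0.84, and at 0.57 for Ogn, above both of them at 0.50 and 0.42. For Dcn it was at 0.28, for Omd at 0.13 and for Bgn at 0.0029, below both 13del-tg arrays.

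**Figure D3:**
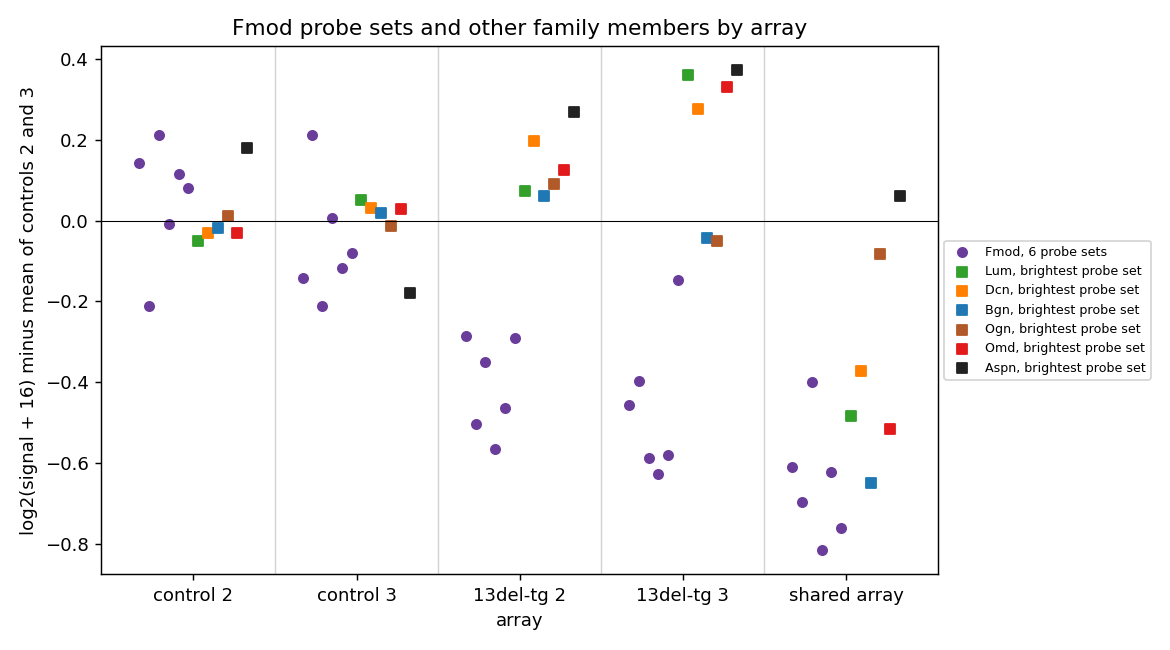
Each point is 1 probe set on 1 array, as log2(signal + 16) minus the mean of controls 2 and 3, for the 6 Fmod probe sets and the brightest probe set of 6 other genes. Fmod lies below 0 on both 13del-tg arrays in all 6 probe sets, while Dcn, Lum, Omd and Aspn lie above 0 there, and most points are below 0 on the shared array.

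Markers of tendon and cartilage, tissues that also make Fmod, are given beside it. The 4 tendon and ligament markers summed to 10773 and 6899 in the controls, 11224 and 10672 in 13del-tg and 11688 on the shared array. Most of each sum was Tnmd, with 9545 and 6312 in the controls. All 4 had a positive difference, where 41.4% of all probe sets did, and the groups were apart in 1 of 4. Scx (0.12, SE 0.38) and Mkx (0.092, SE 0.27) had differences below their SE. The 7 chondrocyte markers summed to 26488 and 6599 in the controls, 9910 and 2296 in 13del-tg and 12806 on the shared array. All 7 had a negative difference (median -1.77), where 58.6% of all probe sets did, and the groups were apart in 1 of 7. In 13del-tg 3, Snorc (8.7) and Matn1 (19.0) were below the filter level of 61.9. Between the controls, the chondrocyte, tendon and muscle sums were all lower in control 3 than in control 2, and so were 4 Fmod probe sets. These were 1456084_x_at (20639 against 25162), 1437718_x_at (5342 against 7178), 1437685_x_at (5612 against 6596) and 1438966_x_at (1455 against 1630). The other 2 were higher in control 3, 1437324_x_at by little (6639 against 6571) and 1415939_at by more (9806 against 7303). The part of cartilage or tendon in the Fmod difference was not tested.

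Osteomodulin, or osteoadherin, is a keratan sulfate proteoglycan found mainly in mineralised tissue. Omd had 7486 and 7803 in the controls, 8344 and 9609 in 13del-tg and 5336 on the shared array, so the 13del-tg arrays were both higher and the shared array was lowest. The log2 difference was 0.23 (SE 0.18, 95% interval -0.19 to 0.65, adjusted p = 0.887 by limma). Osteoglycin, or mimecan, is a smaller member whose gene lies beside Omd. Ogn 1419662_at was the steadiest of the brightest probe sets, with 12687 and 12472 in the controls, 13404 and 12156 in 13del-tg and 11873 on the shared array, a range of 0.17 on the log2 scale. Its difference was 0.021 (SE 0.18, 95% interval -0.38 to 0.43) and turned to -0.14 with quantile normalization. The second, 1419663_at, had 0.18 (SE 0.18).

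Prelp encodes a proteoglycan with an arginine and proline rich start that binds heparan sulfate and anchors basement membranes to connective tissue. The brighter Prelp probe set, 1416321_s_at, had 1223 and 1256 in the controls, 2002 and 954.9 in 13del-tg and 907.3 on the shared array. The 2 13del-tg arrays lay on opposite sides of the controls, and the other probe set, 1416322_at, behaved alike with 361.9 and 347.9 against 435.6 and 219.0. The log2 differences of 0.16 (SE 0.34) and -0.19 (SE 0.36) were smaller than this spread. Prelp therefore differed from its neighbour Fmod in showing no common direction in the 2 13del-tg arrays.

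Keratocan, encoded by Kera, is best known as the keratan sulfate proteoglycan of the corneal stroma and is also made by osteoblasts and tendon cells. Its single probe set, 1418063_at, had 1337 and 42.4 in controls 2 and 3, 3059 and 1768 in 13del-tg 2 and 3, and 4703 on the shared array. Control 3 was thus below the filter's level of 61.9, control 2 was close to 13del-tg 3, and the shared array was highest. The log2 difference was 3.06 (SE 1.17, 95% interval 0.36 to 5.76), with an unadjusted p of 0.0311 and an adjusted p of 0.88 by limma. It was 0.79 without control 3 and 5.33 without control 2, when limma gave an adjusted p of 0.000317 with control 3 as the lone control, assumed to vary like 13del-tg. With a pseudocount of 64 it was 2.63 and with 1 it was 3.27.

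Kera ran over 6.34 log2 units across the 5 arrays, but its low end, control 3, was below the filter level, where the size depends on the floor and the pseudocount. With control 3 raised to that level the range was 5.92, and without control 3 it was 1.80, both computed after the values had been seen. The brightest probe sets of the 8 other genes ran over 0.17 to 1.13, with or without control 3. By the smallest root mean square difference of centred log2 values over the 5 arrays, the 3 probe sets of other genes most like it were Tmem38a (0.30), Fbp2 (0.36) and Trim54 (0.39). All are genes known from striated muscle, Tmem38a for a channel of the sarcoplasmic reticulum, Fbp2 for the muscle fructose bisphosphatase and Trim54 for a sarcomere-associated protein. Tmem38a had 1271 and 23.0 in the controls, 1916 and 886.7 in 13del-tg and 2935 on the shared array. Like Kera, all 3 genes were below the filter level in control 3. Low in control 3 and highest on the shared array, it had the order of arrays seen for Kera apart from control 2 and 13del-tg 3.

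Of the 6 muscle markers 5 had a positive difference (median 1.70), and all 6 were lowest in control 3. The creatine kinase gene Ckm had 18368 and 2958 in the controls, 27258 and 21097 in 13del-tg and 27182 on the shared array. The exception in sign was the myosin gene Myh4, with 161.6 and 29.0 in the controls, 131.7 and 30.9 in 13del-tg and 622.4 on the shared array. The 4 tendon markers did not share a pattern. Thbs4, a matrix protein of tendon and muscle, had 747.4 and 102.3 in the controls, 1280 and 601.7 in 13del-tg and 2168 on the shared array. Tnmd, the tendon protein tenomodulin, was lowest in control 3 at 6312 but at 8896 to 9545 on the 4 other arrays. The tendon regulators Scx, at 102.1 to 195.7, and Mkx, at 362.1 to 427.8, were not lowest in control 3. Krt12, the keratin that defines corneal epithelium, had a mean below the filter, with signals from 2.2 to 80.2. As an epithelial marker it does not report on the corneal stroma. Lum and Dcn, the next genes to Kera on chromosome 10, did not share the drop in control 3, nor did Epyc, at 1983 and 1501 in the controls. The part of attached muscle or tendon in the Kera difference was not tested.

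**Figure D4:**
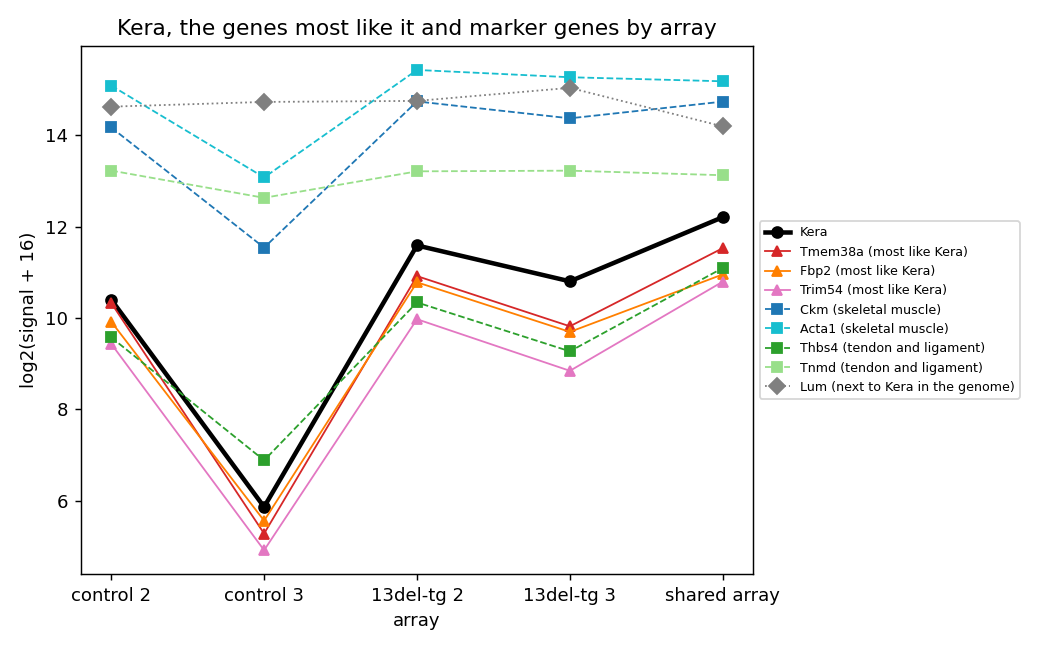
Log2(signal + 16) on the 5 arrays for Kera, the 3 genes most like it, 4 muscle and tendon markers and Lum, with lines that only join the values of 1 probe set, since arrays have no order. Kera and the 3 most like genes drop in control 3, where Kera has a signal of 42.4, and Lum does not.

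For the other members with a wide range, the most like probe sets were close to them with no common name. Those for Prelp, which ran over 1.13 log2 units, were Tnfrsf11b (0.092), Etv5 (0.095) and Fzd1 (0.096). Those for Omd, which ran over 0.85, were Rpl38 (0.013), Rpn1 (0.026) and Bola2 (0.028).

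The shared array stood apart in most of the family. It lay below the 4 others for 14 of 20 probe sets, where 20.9% of all 27022 did, and above the 4 others only for Kera, where 27.1% did. Set against the control mean, it had a median of -0.46 over the 20 probe sets and -0.0003 over all. The drop was not particular to the family. The 10 collagen partners, which the proteoglycans bind, had a median of -0.57 on that array. Osteoblast, osteocyte and osteoclast markers had medians of -0.65, -0.67 and -0.63 there, while tendon and muscle markers had 0.46 and 1.94. Counting it as 13del-tg only moved the family's median difference to -0.12, and as control only to 0.24.

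Genes around the family were taken from lists chosen by name. Of the 10 collagen genes 5 were positive and 5 negative, with a median of 0.018 and none past the threshold or at an unadjusted p under 0.05 by limma. Col6a2, a chain of the beaded collagen VI that biglycan and decorin bind, had the smallest unadjusted p, with 21984 and 23870 in the controls and 20272 and 13872 in 13del-tg. Its difference was -0.45 (SE 0.22), beside 0.087 (SE 0.17) for Col1a1. The other collagen VI chains measured went in opposite directions, with -0.27 (SE 0.20) for Col6a1 and 0.14 (SE 0.18) for Col6a3.

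Among related genes with leucine-rich repeats, 5 of 7 on the array were above the filter, 3 positive and 2 negative. Epyc, the cartilage proteoglycan epiphycan, had 1983 and 1501 in the controls and 634.1 and 1322 in 13del-tg. Its log2 difference was -0.90 (SE 0.35, adjusted p = 0.88 by limma). Ecm2, which lies beside Aspn, had 0.60 (SE 0.45), and the cartilage gene Chad had 0.24 (SE 0.31).

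The enzymes that build the sugar chains showed no call. Of 19 genes for the linkage region and for chondroitin and dermatan sulfate, 5 were positive and 14 negative, with a median of -0.12. The exception at an unadjusted p of 0.0267 was Dse, the epimerase that turns chondroitin into dermatan sulfate. It had 374.4 and 257.6 in the controls, 543.6 and 554.6 in 13del-tg and 441.0 on the shared array, a difference of 0.79 (SE 0.29, adjusted p = 0.88 by limma). All 7 keratan sulfate enzymes above the filter were negative, where 58.6% of all probe sets were, with a median of -0.28. At an unadjusted p under 0.05 by limma there were 0 of 7. Against the control mean, their median was -0.0105 in 13del-tg 2 and -0.38 in 13del-tg 3. B3gnt2, which extends the chain, had -0.43 (SE 0.22).

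Fibromodulin and osteomodulin carry sulfated tyrosines, added by the enzymes of Tpst1 and Tpst2. Tpst1 had 2298 and 2635 in the controls, 1836 and 1520 in 13del-tg and 2018 on the shared array, so both 13del-tg arrays were lower. Its difference was -0.55 (SE 0.21), with an unadjusted p of 0.0311 and an adjusted p of 0.88 by limma, whereas Tpst2 had 0.016 (SE 0.22).

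Of 9 proteases and helpers that process the family, 6 were positive and 3 negative, with a median of 0.14. Mmp14, a membrane protease that cleaves matrix at the cell surface, had 12455 and 14895 in the controls and 10039 and 8111 in 13del-tg, a difference of -0.59 (SE 0.20, unadjusted p = 0.0177, adjusted p = 0.88 by limma). Pcolce, the enhancer of procollagen cleavage, had 0.35 (SE 0.18). Of 14 growth factors and receptors bound by the family, 6 were positive and 8 negative, with a median of -0.047. Bmp4 had the smallest unadjusted p there, with 1095 and 1193 in the controls and 921.8 and 549.3 in 13del-tg, a difference of -0.67 (SE 0.29). Tgfb1, the factor that decorin binds, had -0.32 (SE 0.22).

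For signal position, the brightest probe sets of the 7 genes other than Kera and Prelp stood at or above the 97.4th percentile of all probe sets on each of the 5 arrays. Such a position depends on each probe set's own binding and is no amount of RNA. The median SE of the 20 differences was 0.19, against 0.32 for all probe sets, and the number of arrays limits the precision.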

How the data were processed

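MAS5 produced the signals, per the submitters' processing notes, and no version was stated there. The deposited intensities are linear, 1 for each probe set on each array, and their trimmed mean (2% off each end) was 500.003 on every array. Probe sets were named from the platform annotation. Values were taken as log2(signal + 16). Of 45037 probe sets other than the 64 array controls, the 27022 whose mean over the 5 distinct arrays reached the 40th percentile were kept. Genotypes were compared, 2 arrays against 2, with limma 3.58.1 under R 4.3.3 (linear model, moderated by eBayes with an intensity trend). P-values are two-sided and Benjamini-Hochberg adjusted over every kept probe set, with 0.05 as the threshold. Residual degrees of freedom were 2 and prior ones 6.01. The code was tested on simulated data. The labels call the samples biological replicates. Members and lists were chosen with earlier results of these data known. Named genes are all members, up to 4 genes of each list by smallest unadjusted p (each read by its brightest probe set), and, for the 3 members of widest range, the 3 most like probe sets. Marker genes come from the cell type lists. The gaps to Fmod and the values of Col10a1, Col1a1, Col6a3, Xist, Kdm5d, Tnmd, Scx, Mkx, Matn1, Myh4 and Krt12 were chosen after values were seen. The 17 alternatives cover pseudocount, filter, scaling, eBayes settings, replicate block, the shared array and each array left out.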

Additional observations from a re-analysis of the deposited data

Results flagged for a closer look

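The shared array, which enters no comparison, had signals above both controls in 2 of the 20 probe sets. Kera had 4702.9 on it, while controls 2 and 3 had 1337 and 42.4 and the 13del-tg arrays had 3059 and 1768. The second was the Aspn probe set 1448421_s_at, with 3227.9, against 3034 and 2177 in the controls and 3653 and 3396 in 13del-tg, while the brighter Aspn probe set, at 9061, lay between the controls. The labels do not settle the array's genotype, its Col10a1 signal of 152.2 was at the level of the controls, and the cause was not tested.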

How the results depend on the processing

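Over 17 alternatives the 20 probe sets gave 329 values. Of these 308 kept their direction and their side of the threshold, 19 changed sign and 2 passed it. No member that changed sign had passed the threshold. With the shared array added to 13del-tg alone, signs turned for Bgn (-0.21, -0.13 and -0.14), Lum (-0.016), Ogn 1419662_at (-0.014), Omd (-0.020) and Prelp 1416321_s_at (-0.043). With it as control only Fmod 1438966_x_at turned to 0.035. Quantile normalization turned Bgn (-0.19, -0.11 and -0.13) and Ogn 1419662_at (-0.14). Leaving out each array in turn gave -1.12 to 0.097 for Dcn 1441506_at, -0.044 to 0.060 for Bgn 1437889_x_at, -0.0008 to 0.14 for Bgn 1416405_at, -0.049 to 0.092 for Ogn 1419662_at, -0.37 to 0.69 for Prelp 1416321_s_at, -0.66 to 0.28 for Prelp 1416322_at and 0.79 to 5.33 for Kera. The sign turned without 13del-tg 2 for both Bgn probe sets (for 1437889_x_at without control 2 too), Ogn and Prelp 1416321_s_at, without 13del-tg 3 for Prelp 1416322_at and without control 3 for Dcn. The range of Kera over arrays was 1.80 without control 3.

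The median over the 20 probe sets, 0.046, was 0.23 with each array centred on its median, -0.12 with quantile normalization, 0.22 over the 9 brightest probe sets, 0.24 with the shared array as control only, -0.12 with it as 13del-tg only and -0.047 to 0.10 when 1 array was left out. Centring moved the median of all probe sets from -0.075 to 0.11, so the family's median relative to it was 0.12 in both cases, and -0.12 with quantile normalization.

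Counts over all probe sets past the threshold, 2 higher and 8 lower, were 1 and 1 with a pseudocount of 1, with the 60th percentile filter and with quantile normalization. They were 1 and 0 without a filter, without the trend and when the shared array joined the controls alone. They were 0 and 8 with it as 13del-tg only, 0 and 0 with it under both labels, 2 and 5 with a pseudocount of 64, 3 and 21 with centring, and 2 and 18 with robust eBayes. When 1 array was left out they ran from 1 to 199 higher and from 5 to 43 lower, both highest without control 2. Without 13del-tg 3 they were 1 and 18. At an unadjusted p under 0.05 limma gave 384 higher and 1006 lower, but 848 and 495 with centring, 1750 lower without a filter, 1148 lower without the trend, 1125 lower with the shared array as a control, 667 higher with it as 13del-tg, and 31 and 263 with it under both labels.

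The replicate block, with the replicate number as a term, gave 330 higher and 338 lower, and 1 of 20 members passed, Kera (3.06, SE 0.28, limma adjusted p = 1.2e-20). That fit has 1 residual degree of freedom and 384 prior ones, so its spread comes nearly all from other probe sets. Deviations of same-numbered arrays correlated at 0.22 over probe sets in 2 pairs. The arrays share only a number, so the block has no settled basis.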
